A study of Mus musculus with 6 samples.

Results

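The genes described are the growth factor receptor tyrosine kinases with known roles in the growth of cardiomyocytes. They were chosen by name and not by a rule on measured values, although earlier results of these data were known. The list holds 10 receptor genes (Erbb2, Erbb3, Erbb4, Egfr, Igf1r, Insr, Fgfr1, Pdgfra, Pdgfrb, and Met), and those in the table of normalized counts are described. Of these, 9 are among the 21269 genes of the table, and Met was not analysed here. RNA was sequenced from HL-1 cells, a line derived from mouse atrial cardiomyocytes, after transfection with a control gapmer (LNA Control) or a gapmer against the long noncoding RNA Malat1 (LNA Malat1). A gapmer is a short DNA with ends of locked nucleic acid (LNA) that base-pairs with an RNA and leads to its cleavage by RNase H. There were 3 libraries in each group. All cells, including those given LNA Control, were grown in Claycomb medium with 10% serum and 0.1 mM norepinephrine, an adrenergic agonist, so the receptors were measured in cells fed with serum. The LNA was used at 50 nM on cells seeded 24 hours earlier, and RNA was taken 48 hours after transfection. All libraries come from 1 cell line, 1 control gapmer, and 1 Malat1 gapmer, so an effect of lower Malat1 and another effect of that gapmer sequence cannot be told apart. Nothing in the sources used here says that the replicates were separate cultures, and the p-values then measure only the spread between these libraries.

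Receptor tyrosine kinases span the cell membrane, bind a growth factor outside the cell, pair up, and phosphorylate each other on tyrosines, to which adaptor proteins dock. From there the signal runs mainly along the Ras and MAP kinase cascade and along PI3K and Akt. In the heart, neuregulin acts through Erbb4 and its partner Erbb2 on the growth and division of cardiomyocytes, the IGF1 receptor and the insulin receptor drive growth and glucose uptake, and the PDGF receptors are best known from fibroblasts and the mural cells of vessels.

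The deposited values are counts of reads per gene, scaled by 1 factor per library and rounded, and are called normalized counts. They summed to between 4758777 and 4921406 per library, from about 4512253 to 5593499 reads on genes as recovered from the rounding. Malat1 itself had normalized counts of 5051, 5197, and 4369 with LNA Control against 2833, 2792, and 2732 with LNA Malat1, a fall to 57.2% of the control mean (log2 fold change -0.80, adjusted p 7.5e-06 in limma). LNA Malat1 replicates 1 and 3 differed by less than the sampling noise over genes with at least 20 reads (chi-square 0.949 per gene over 14522 genes). This did not hold among the genes with the most reads (1.114 per gene over 1753 genes). Replicates 1 and 3 were counted as 1 sample in each mean ± SD (n = 2) but as separate samples in the test. Such an SD can be smaller than the spread of the 3 LNA Malat1 libraries. LNA Malat1 replicates 1 and 2 were also within the sampling noise by the first measure (1.012 per gene over 14308 genes). They differed more than replicates 1 and 3 among the genes with the most reads (1.665 per gene). All pairs of LNA Control libraries differed more, at 1.768 to 4.179 per gene by the first measure. Among the genes with the most reads, the LNA Control pairs were at 4.509 to 15.02. Of the cardiomyocyte markers, 11 of 12 are in the table and their summed normalized counts were 7007 to 7422 in LNA Control and 6649 to 6809 in LNA Malat1, led by Ryr2, the calcium release channel. Levels within this list differed widely, with Myh6, the alpha myosin heavy chain, at 0 to 7 and the connexin gene Gja5 at 0 to 4. The troponin gene Tnni3 was at 164 to 196, and Nppa was not analysed here.

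Across the receptor genes, the LNA Malat1 libraries had lower Erbb4 and Igf1r, higher Pdgfrb, and slightly higher Erbb3, while Insr and Fgfr1 had log2 fold changes of -0.01 and -0.08 that did not pass the test. A call required an adjusted p of 0.05 or lower in limma across all tested genes and also a fold change of at least 1.5. Testing was limited to genes whose normalized counts averaged 5 or more, which held for 8 of the 9 receptor genes in the table, and Egfr was below it. Of the 8, 1 was called higher (Pdgfrb) and 2 were called lower (Erbb4 and Igf1r), where 8% of the 15650 genes tested were called higher and 2.92% lower. By the adjusted p alone, 2 receptor genes were higher and 2 lower, against 14.3% and 14% of all genes. The libraries of the groups did not overlap for Erbb3 and Pdgfrb, which were higher in LNA Malat1, and for Erbb4, Igf1r, and Pdgfra, which were lower, and 20.5% and 20.8% of all genes were separated in this way in either direction. The median log2 fold change of the 8 receptor genes was -0.12, beside 0.018 for all genes tested. Because these are bulk samples, fewer cells that express a receptor and less RNA of it per cell cannot be told apart.

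**Figure D1:**
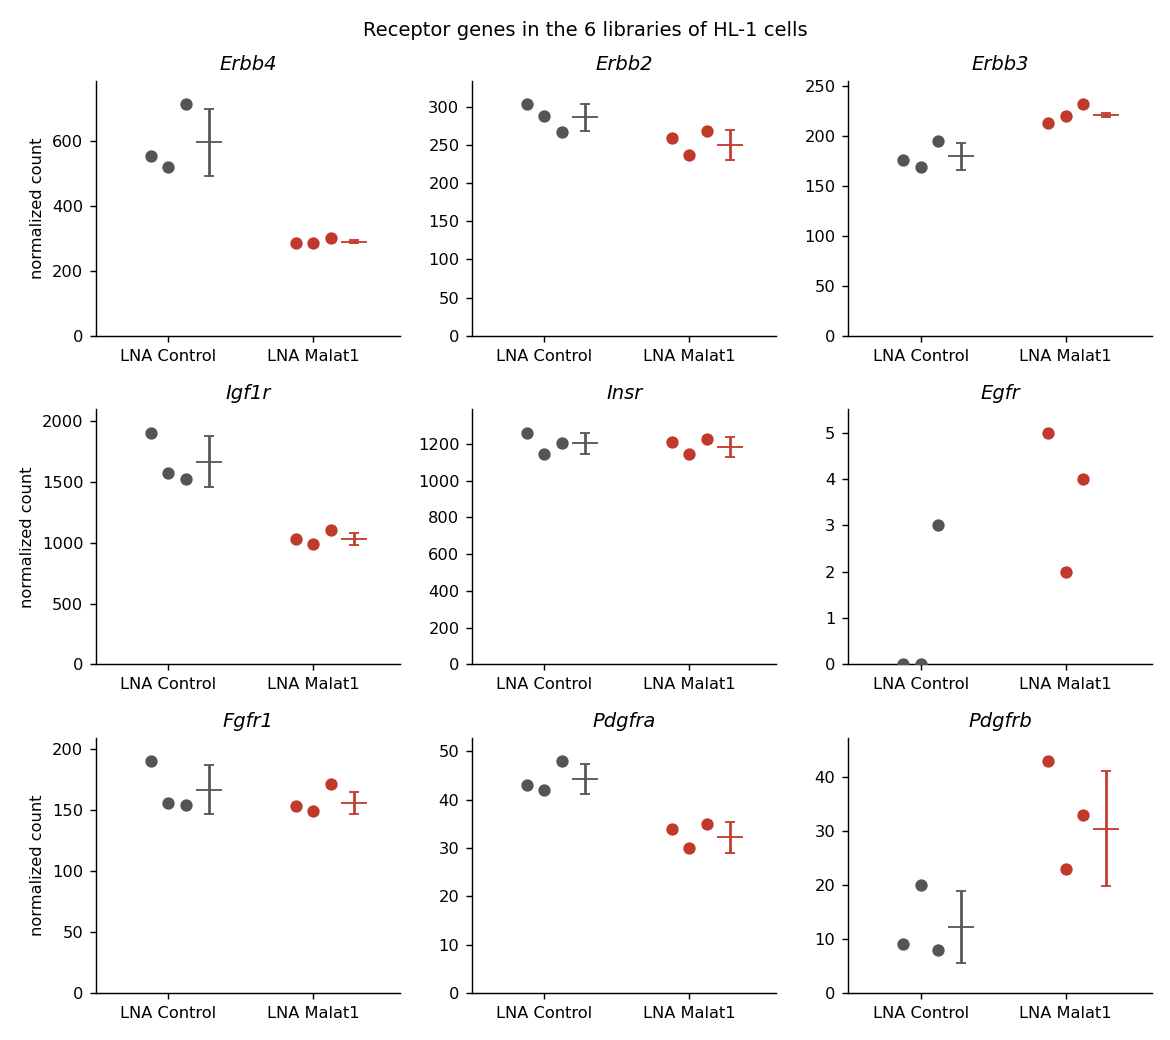
Normalized counts (vertical axes, each starting at 0) of the 9 receptor genes in the 3 LNA Control libraries (grey points) and the 3 LNA Malat1 libraries (red points). Horizontal bars with whiskers are the mean ± SD (n = 3 and n = 2, with LNA Malat1 replicates 1 and 3 averaged first), not drawn for Egfr. The Erbb4 points lie between 520 and 712 in LNA Control and between 286 and 301 in LNA Malat1, while those of Insr lie between 1145 and 1260 in both groups.

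The ErbB receptors share much of their kinase domain. The longest run of identical coding bases of Erbb2 and Erbb4 was 22 bases, against a read length of 75 bases. No pair of receptor genes shared a run longer than 46 bases anywhere in their transcripts (Insr and Pdgfra), so no full-length read could match the annotated transcripts of more than 1 of these genes exactly.

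Erbb4, the receptor of the neuregulins on cardiomyocytes, had the largest fall of the receptor genes tested. It lies on chromosome 1 (mm10, chr1:68032186-69108059, minus strand) and spans 1080 kilobases with 12355 exonic bases. Its normalized counts were 552, 520, and 712 with LNA Control against 286, 287, and 301 with LNA Malat1. The groups did not overlap, and LNA Control replicate 3 stood above the other two control libraries, whereas the 3 LNA Malat1 libraries were close together. The means were 594.7 ± 102.9 (SD, n = 3) and 290.2 ± 4.6 (SD, n = 2), which put Erbb4 at 48.8% of the control level. The log2 fold change was -1.01 (SE 0.09, 95% interval -1.22 to -0.81) on the log2(normalized count + 1) scale, with an adjusted p of 9.2e-06 in limma. Erbb4 was called in all 16 alternatives in which it was tested, with log2 fold changes of -1.10 to -0.88 when each library was left out.

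Erbb2, the partner of Erbb4 that binds no ligand of its own, is on chromosome 11 (chr11:98412470-98437716, plus strand). It had normalized counts of 303, 287, and 267 with LNA Control against 259, 236, and 268 with LNA Malat1. The ranges overlapped by a single library on each side, and the means were 285.7 ± 18.0 (SD, n = 3) and 249.8 ± 19.4 (SD, n = 2). The difference, at a log2 fold change of -0.17 (95% interval -0.32 to -0.01) and an adjusted p of 0.1 in limma, did not pass the test. The interval runs from 0.8 to 0.992 times the control level. The adjusted p was 0.049 without LNA Control replicate 3, and the fold stayed under the minimum.

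Erbb3, which has a weak kinase and carries docking sites for PI3K, moved the other way. It lies on chromosome 10 (chr10:128567523-128589652, minus strand), and its normalized counts were 176, 169, and 195 with LNA Control against 213, 220, and 232 with LNA Malat1. Every LNA Malat1 library was above every control library, with means of 180.0 ± 13.5 (SD, n = 3) and 221.2 ± 1.8 (SD, n = 2). The rise of 1.23-fold (log2 fold change 0.30, SE 0.08, 95% interval 0.14 to 0.47) passed the adjusted p in limma (0.011) but was below the fold change of 1.5, and it was not called in any of the 16 alternatives. Leaving out LNA Control replicate 2 gave an adjusted p of 0.053, and leaving out LNA Malat1 replicate 3 one of 0.058.

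Egfr, the receptor of EGF and TGF alpha, was near the limit of detection. It lies on chromosome 11 (chr11:16752203-16918158, plus strand) and had normalized counts of 0, 0, and 3 with LNA Control against 5, 2, and 4 with LNA Malat1, which come from 0 to 5 reads per library. The ranges overlapped. Without the filter on low values its adjusted p in limma was 0.11, and a difference was not detectable at this depth.

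Igf1r, the receptor of IGF1 and IGF2, fell as well. On chromosome 7 (chr7:67952827-68233668, plus strand) it spans 281 kilobases with 16791 exonic bases. Its normalized counts were 1907, 1575, and 1526 with LNA Control against 1031, 995, and 1109 with LNA Malat1. All LNA Malat1 libraries lay below all control libraries, of which replicate 1 was the highest. The means were 1669.3 ± 207.3 (SD, n = 3) and 1032.5 ± 53.0 (SD, n = 2), or 61.9% of the control level. The log2 fold change of -0.67 (SE 0.08, 95% interval -0.84 to -0.50) had an adjusted p of 5.7e-05 in limma. Without LNA Control replicate 1 it was -0.57 (adjusted p 6.2e-07), which is under the fold minimum, and Igf1r was called in the other 15 of 16 alternatives.

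Insr, the insulin receptor and the closest relative of Igf1r, differed little. It is on chromosome 8 (chr8:3122061-3279617, minus strand) and had normalized counts of 1260, 1146, and 1205 with LNA Control against 1210, 1145, and 1227 with LNA Malat1. The ranges of the groups were almost the same. The log2 fold change was -0.01 (SE 0.06) with a 95% interval of -0.13 to 0.11, so that a change to below 0.913 or above 1.08 times the control level is outside the interval. The adjusted p was 0.9 in limma.

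To show Igf1r and Insr around their longest run of identical coding bases, 60 coding bases of exon 8 follow for both. This exon encodes part of the extracellular region. The windows are chr7:68187010-68187069 (plus strand) for Igf1r and chr8:3192723-3192782 (minus strand) for Insr. Capitals in the line of Insr mark the 50 bases (83.3%) identical to Igf1r.
Igf1r: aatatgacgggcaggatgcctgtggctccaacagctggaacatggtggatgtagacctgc
Insr: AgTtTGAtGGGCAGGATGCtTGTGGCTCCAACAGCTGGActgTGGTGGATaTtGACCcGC
The longest identical coding run of this pair was 19 bases. In untranslated and coding sequence together it was 43 bases, also shorter than a read.

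Fgfr1, an FGF receptor of cardiomyocytes, is also on chromosome 8 (chr8:25513654-25575718, plus strand). Its normalized counts were 190, 156, and 154 with LNA Control against 153, 149, and 171 with LNA Malat1. The groups overlapped, with LNA Control replicate 1 the highest library. The log2 fold change was -0.08 (95% interval -0.28 to 0.13) and the adjusted p 0.6 in limma. Other FGF receptor genes had higher levels than Fgfr1. In LNA Control, Fgfr3 and Fgfr4 had means of 106 and 66.6 normalized counts per kilobase of exon, against 16.9 for Fgfr1. Their log2 fold changes were 0.03 and 0.12, and neither passed the test. Fgfr3 shares 13.942% of its exonic bases with G630022F23Rik on the opposite strand.

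The PDGF receptors went in opposite directions, both at low levels. Pdgfra, on chromosome 5 (chr5:75152292-75198215, plus strand), had normalized counts of 43, 42, and 48 with LNA Control against 34, 30, and 35 with LNA Malat1. The groups did not overlap and the LNA Malat1 mean was 72.7% of the control mean. The log2 fold change of -0.42 (SE 0.16, 95% interval -0.77 to -0.06) did not pass the test (adjusted p 0.074 in limma). With quantile normalization it was -0.62 with an adjusted p of 0.011, and Pdgfra was then called.

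Pdgfrb, on chromosome 18 (chr18:61045150-61085061, plus strand), had normalized counts of 9, 20, and 8 with LNA Control against 43, 23, and 33 with LNA Malat1. Every LNA Malat1 library was above every control library, although LNA Control replicate 2 and LNA Malat1 replicate 2 were close. The means were 12.3 ± 6.7 (SD, n = 3) and 30.5 ± 10.6 (SD, n = 2), a ratio of 2.47. The log2 fold change of 1.42 (SE 0.34, 95% interval 0.68 to 2.15) had an adjusted p of 0.0079 in limma. The call rests in part on LNA Malat1 replicate 1. Without it the log2 fold change was 1.21 (adjusted p 0.06), and it was 1.31 when LNA Malat1 replicates 1 and 3 were merged (adjusted p 0.0505). Genes of low counts rose in general in these data, and of the 1835 genes whose normalized counts averaged between 20 and 50, 19.6% were called higher and 3.87% lower, with a median log2 fold change of 0.23. Quantile normalization gives every library the same distribution of values, so that this median is drawn toward 0 by design, and it was -0.02. Pdgfrb was called there as well (log2 fold change 1.13, adjusted p 0.03 in limma). The part of the general rise in the Pdgfrb result was not tested. The summed mural cell markers, of which 4 of 7 are in the table, were 346 to 436 in LNA Control and 413 to 491 in LNA Malat1, led by Notch3, which holds most of the sum. Myh11, of the same list, went the other way, from 18, 22, and 21 to 17, 16, and 8 without overlap, and did not pass the test (log2 fold change -0.60). Rgs5, Kcnj8, and Higd1b, which define pericytes, were not analysed here, and the part of mural cells in the result was not tested. Summed fibroblast markers (4 of 8 in the table, led by Col3a1) were 5256 to 5868 and 4648 to 4783, and Col1a2 was at 0 or 1 in every library.

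**Figure D2:**
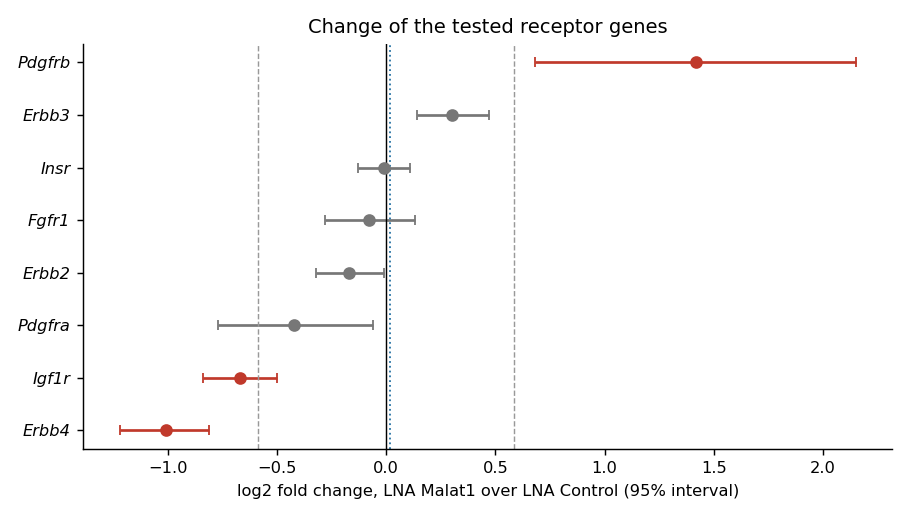
Log2 fold change (horizontal axis, LNA Malat1 over LNA Control) of the 8 tested receptor genes with 95% intervals from limma, called genes in red. Dashed lines mark the fold change of 1.5 in either direction and the dotted line the median of all genes tested (0.018). Erbb4 (-1.01) and Igf1r (-0.67) lie on the left, Pdgfrb (1.42) with the widest interval on the right, and the interval of Insr spans 0.

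To compare levels between receptor genes, normalized counts were divided by the kilobases of exon. This length joins the exons of all annotated transcripts of a gene and can differ from that of the transcripts present in these cells. In LNA Control, the mean normalized counts per kilobase were 99.4 for Igf1r, 87.6 for Insr, 54.8 for Erbb2, 48.1 for Erbb4, 29.9 for Erbb3, 16.9 for Fgfr1, 4.42 for Pdgfra, 2.25 for Pdgfrb, and 0.0883 for Egfr. The ranges over the control libraries overlapped between Igf1r and Insr and between Erbb2 and Erbb4, so the order within each of these pairs did not exceed the spread, and other neighbours in this order did not overlap. In LNA Malat1, the means per kilobase were 86.0 for Insr, 61.5 for Igf1r, 47.9 for Erbb2, 36.8 for Erbb3, 23.5 for Erbb4, 15.7 for Fgfr1, 5.57 for Pdgfrb, 3.22 for Pdgfra, and 0.287 for Egfr. Insr then stood above Igf1r, Erbb3 above Erbb4, and Pdgfrb above Pdgfra, and no neighbours in this order overlapped over the 3 LNA Malat1 libraries. The order of Erbb3 and Erbb4 and that of the PDGF receptors depend on the lengths used. Before the division, the LNA Malat1 means were 290.2 for Erbb4 and 221.2 for Erbb3, and 32.2 for Pdgfra and 30.5 for Pdgfrb. The level summed over the 9 genes was 326 to 362 per kilobase in LNA Control and 270 to 297 in LNA Malat1. As a share of that sum, Igf1r went from 26.6% to 31.3% across the control libraries to 21.6% to 22.2%, Erbb4 from 12.3% to 16.9% to 8.13% to 8.6%, Insr from 25.3% to 25.6% to 30.1% to 30.9%, and Erbb3 from 8.07% to 9.48% to 12.4% to 13.5%.

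Ratios between receptor genes within a library do not depend on how the libraries were scaled. They are ratios of normalized counts not divided by length, so they are compared between groups, and a ratio of 1 does not mark equal levels. The ratio of Igf1r to Insr normalized counts was 1.51, 1.37, and 1.27 with LNA Control against 0.852, 0.869, and 0.904 with LNA Malat1, so that Igf1r had more counts than Insr in every control library and fewer in every LNA Malat1 library. Erbb2 to Erbb3 gave 1.72, 1.70, and 1.37 with LNA Control against 1.22, 1.07, and 1.16 with LNA Malat1. For Pdgfra to Pdgfrb the ratio was 4.78, 2.1, and 6.0 with LNA Control against 0.791, 1.3, and 1.06 with LNA Malat1. None of the 3 ratios overlapped between the groups. For the test, 1 was added to each normalized count before the ratio was taken. The mean log2 ratios then differed by -0.66, -0.47, and -1.83, respectively. With that addition, ratios of low counts depend slightly on the scaling. In a two-sided exact permutation test, each p was 0.1, the smallest that 3 against 3 libraries can give, and 0.13 after Benjamini-Hochberg adjustment over the 4 ratios tested. The fourth, Erbb2 to Egfr, rests on 0 to 5 reads of Egfr, and its exact permutation p was 0.2. The ratios of Erbb4 to its relatives were added after the values were seen and are given without a test. Erbb4 to Erbb2 was 1.82, 1.81, and 2.67 with LNA Control against 1.1, 1.22, and 1.12 with LNA Malat1, and Erbb4 to Erbb3 was 3.14, 3.08, and 3.65 against 1.34, 1.3, and 1.3.

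**Figure D3:**
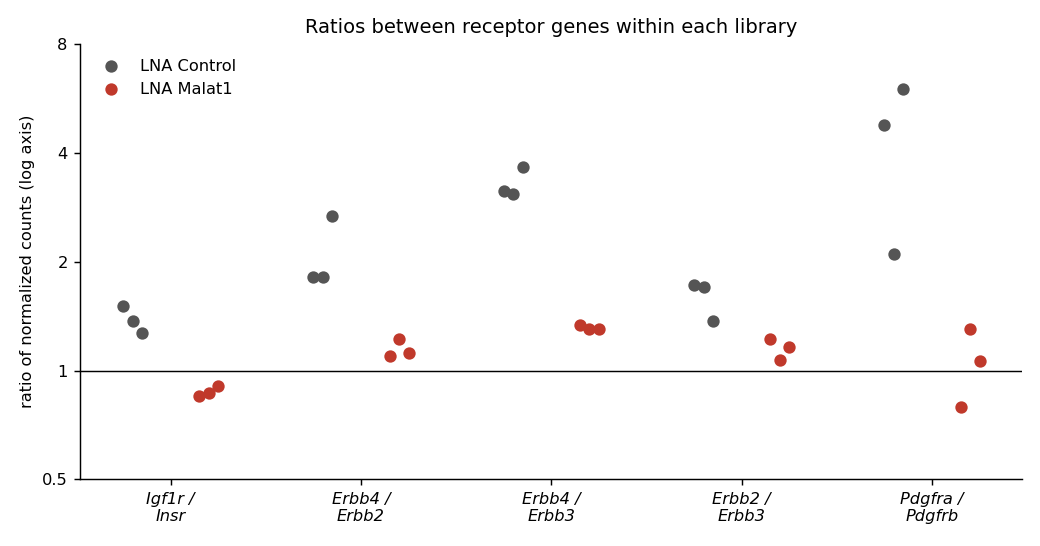
Ratio of the normalized counts of pairs of receptor genes (vertical axis, log scale) in each LNA Control (grey) and LNA Malat1 (red) library, with the line at 1. The Igf1r to Insr ratio lies above 1 in the 3 control libraries (1.27 to 1.51) and below 1 in the 3 LNA Malat1 libraries (0.852 to 0.904).

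The receptor genes that fell are long. Erbb4 spans 1080 kilobases and Igf1r 281, while Insr spans 158, Fgfr1 62.1, Pdgfra 45.9, Pdgfrb 39.9, Erbb2 25.2, and Erbb3 22.1. Over the 8 tested genes, span and log2 fold change had a Spearman correlation of -0.67 and a Pearson correlation with the log2 of the span of -0.63, a description over genes that share their libraries. These 8 include Pdgfra and Pdgfrb, whose mean normalized counts of 38.7 and 22.7 are below the 50 required for the span classes. Long genes were lower across the table as well. Among genes averaging 50 or more normalized counts, the median log2 fold change was -0.02 for the 7567 genes spanning under 50 kilobases, of which 2.02% were called lower, -0.04 for those of 50 to 150 kilobases, -0.15 for the 491 genes of 150 to 300 kilobases (8.76% called lower), and -0.29 for the 203 genes of 300 to 1000 kilobases (19.7%). Only 14 genes, Erbb4 among them, spanned 1000 kilobases or more, with a median of -0.54 and 42.9% called lower. Igf1r and Insr fall in the same class of 150 to 300 kilobases, with log2 fold changes of -0.67 and -0.01. The span classes were chosen after the values were seen, and the part of gene length in the falls of Erbb4 and Igf1r was not tested.

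**Figure D4:**
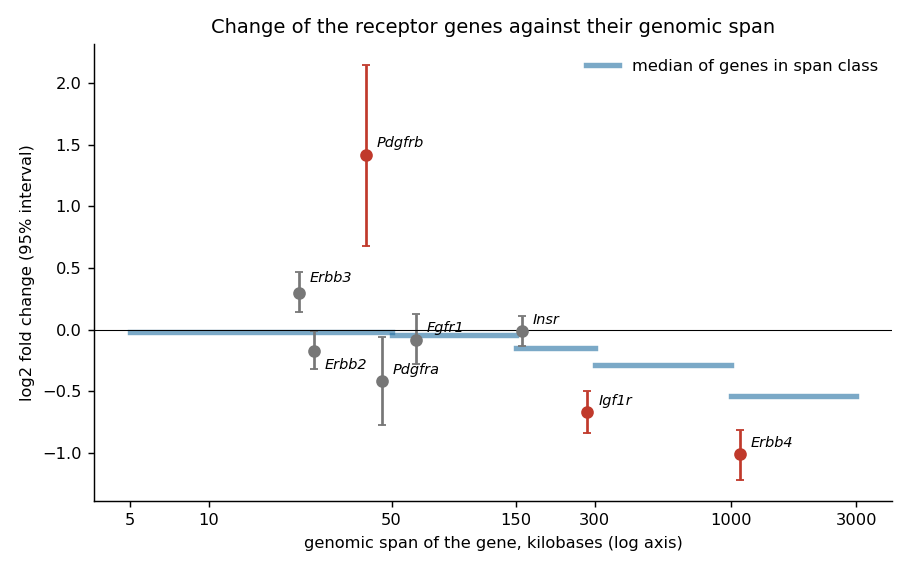
Log2 fold change with 95% interval (vertical axis) of the 8 tested receptor genes against their genomic span in kilobases (horizontal axis, log scale), called genes in red. Blue bars are medians of all genes averaging 50 or more normalized counts in each span class, where the first class reaches down to 0 and the last has no upper end. Pdgfra and Pdgfrb average below 50 and are not among the genes of the bars. Erbb4 (-1.01) lies below the median of its class (-0.54, 14 genes) and Igf1r (-0.67) below that of its own (-0.15), while Insr (-0.01) lies above the latter.

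For the receptor genes called lower, the sequence just upstream of the RefSeq start sites of Erbb4 and Igf1r (GRCm38.p6) is shown, 250 bases read on the strand of the gene, with GC boxes (GGGCGG, or CCGCCC on the other strand) in capitals. RefSeq windows were matched for 6 of the 10 listed genes. The window of Erbb4 is chr1:69108060-69108309 (minus strand) and that of Igf1r chr7:67952007-67952256 (plus strand).
Erbb4: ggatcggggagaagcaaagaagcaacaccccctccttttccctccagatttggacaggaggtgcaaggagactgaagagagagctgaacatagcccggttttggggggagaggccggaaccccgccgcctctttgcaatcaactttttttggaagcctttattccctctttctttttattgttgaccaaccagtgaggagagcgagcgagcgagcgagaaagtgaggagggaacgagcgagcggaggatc
Igf1r: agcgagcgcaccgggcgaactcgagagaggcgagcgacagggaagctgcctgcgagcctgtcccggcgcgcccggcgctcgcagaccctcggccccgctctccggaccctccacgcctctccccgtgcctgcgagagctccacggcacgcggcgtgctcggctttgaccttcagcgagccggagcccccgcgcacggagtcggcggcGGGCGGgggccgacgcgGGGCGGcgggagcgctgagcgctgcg
The Erbb4 window had a GC content of 54.0% with 12 CpG sites and no GC box. In contrast, that of Igf1r had 77.6% with 42 CpG sites, at the percentile 99.1 of the 32851 windows of this length, and 2 GC boxes. Over all windows, 32.7% hold a GC box on either strand, and the median is 6 CpG sites and 52.4% GC. Neither window held TATAAA (12.4% of all windows), CCAAT (33.8%), or CACGTG (6.0%) on either strand.

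On the ligand side, 16 of 25 listed genes are in the table and 14 were tested, of which 3 were called higher (Egf, Fgf2, and Tgfa) and none lower, against 8% and 2.92% of all genes. By the adjusted p in limma alone, 4 were higher and 1 lower, with 2 lower at an unadjusted p under 0.05 and 0 called lower by voom, and the median log2 fold change was 0.13. Egf, a founding ligand of Egfr, had normalized counts of 42, 41, and 40 with LNA Control against 81, 80, and 87 with LNA Malat1 (log2 fold change 0.99, adjusted p 0.0001). Egf shares 607 exonic bases (5.384%) with Gm42697 and 500 (4.435%) with 6330410L21Rik, both on the opposite strand. Fgf2, which binds Fgfr1, went from 23, 16, and 19 to 32, 41, and 38 (log2 fold change 0.91, adjusted p 0.0066). It shares 640 exonic bases (9.437%) with Nudt6 on the opposite strand, and whether the counting used the strand is not given in the sources used here. Tgfa, another Egfr ligand, went from 33, 24, and 21 to 51, 45, and 42 (log2 fold change 0.82, adjusted p 0.0087), and its adjusted p was 0.055 without LNA Malat1 replicate 1 and 0.0502 with quantile normalization. In none of these did the groups overlap. Of the 14 tested ligands, 5 were higher and 2 lower without overlap, against 20.5% and 20.8% of all genes. Fgf2 and Tgfa average between 20 and 50 normalized counts, where 19.6% of genes were called higher, and Egf between 50 and 200, where 7.02% were. The 3 ligands with the highest mean normalized count, not divided by length, were Pdgfa, Nrg2, and Hbegf. Pdgfa, the ligand of Pdgfra, had a log2 fold change of 0.07 (95% interval -0.05 to 0.19, adjusted p 0.38). It shares 26.066% of its exonic bases with 6330403L08Rik on the opposite strand. Nrg2, a neuregulin that binds Erbb3 and Erbb4, had normalized counts of 276, 277, and 298 with LNA Control against 260, 234, and 229 with LNA Malat1, a fall of 0.24 on the log2 scale that passed the adjusted p (0.023) but not the fold minimum. Hbegf, which binds Egfr and Erbb4, rose from 111, 103, and 98 to 157, 137, and 149 (log2 fold change 0.50, adjusted p 0.0016), again without reaching 1.5-fold.

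Of the genes for proteins that bind, release, or clear these ligands, Igf2r rose and Igfbp5 fell. Of 15 listed genes 10 were tested, 3 were called higher and 1 lower, against 8% and 2.92% of all genes, and the median log2 fold change was close to 0. Igf2r, which takes up IGF2 for degradation and does not signal as a tyrosine kinase, had normalized counts of 114, 115, and 123 with LNA Control against 413, 402, and 397 with LNA Malat1. The groups were far apart, with a ratio of means of 3.44 (log2 fold change 1.78, SE 0.07, adjusted p 3e-08 in limma). Igfbp5, a secreted IGF binding protein, fell from 513, 431, and 429 to 288, 233, and 299 (log2 fold change -0.74, adjusted p 0.00011). Pappa2, a protease that cleaves IGF binding proteins, went from 60, 53, and 54 to 82, 78, and 98 (log2 fold change 0.61, adjusted p 0.0037), close to the fold minimum, and dropped to 0.58 when LNA Control replicate 2 was left out and to 0.52 when LNA Malat1 replicate 3 was. It also fell under the minimum with quantile normalization (0.52), with LNA Malat1 replicates 1 and 3 merged (0.58), and with a pseudocount of 5 (0.58). Igfbp7, at 5 to 17 normalized counts, had a log2 fold change of 0.94 with an adjusted p of 0.048 and lost its call when any single library but LNA Control replicate 3 was left out. It kept its call in 4 of the 15 alternatives in which it was tested. Igfbp7 shares 7.031% of its exonic bases with Polr2b on the opposite strand.

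Of the 47 other receptor tyrosine kinases listed, 32 are in the table and 26 were tested. Here 4 were called higher and 1 lower (8% and 2.92% of all genes), 7 were higher and 3 lower by the adjusted p in limma alone (14.3% and 14% of all genes), and the median log2 fold change was 0.12. Epha2, an ephrin receptor, had normalized counts of 220, 179, and 196 with LNA Control against 330, 331, and 319 with LNA Malat1 (log2 fold change 0.72, adjusted p 2.5e-05). Ephb3, of the same family, went from 81, 79, and 80 to 118, 127, and 124 (log2 fold change 0.61, adjusted p 0.00043), and to 0.58, below the fold minimum, with quantile normalization. Csf1r, the receptor of macrophage colony-stimulating factor, went from 13, 22, and 10 to 43, 39, and 23 (log2 fold change 1.19, adjusted p 0.013). It shares 873 exonic bases (15.12%) with Hmgxb3 on the opposite strand, and its adjusted p was 0.081 without LNA Malat1 replicate 1, 0.067 without replicate 2, and 0.062 with quantile normalization. Cd68, the 1 leukocyte marker of 6 in the table, was at 14 to 23 in LNA Control and 31 to 38 in LNA Malat1. Ptprc, Adgre1, Lyz2, C1qa, and C1qb were not analysed here, and the part of leukocytes in the level of Csf1r was not tested. Fgfr2, with 3 to 5 normalized counts in LNA Control and 8 to 12 in LNA Malat1 (log2 fold change 1.13, adjusted p 0.036), and Epha3, with 20 to 25 and 11 to 16 (log2 fold change -0.73, adjusted p 0.042), were called on few reads. Epha3 lost its call without any one of the 6 libraries, with adjusted p of 0.052 to 0.13. It kept its call in 5 of the 15 alternatives in which it was tested. Fgfr2 lost its call without LNA Control replicate 2 or any 1 of the 3 LNA Malat1 libraries, with adjusted p of 0.055 to 0.13. It kept its call in 8 of the 15 alternatives in which it was tested. Fgfr2 shares 314 exonic bases (3.04%) with Ctbp2 on the same strand. Summed endothelial markers (3 of 6 in the table, led by Egfl7) were 57 to 69 in LNA Control and 61 to 70 in LNA Malat1.

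Downstream of the receptors, changes were small in size. All 42 listed adaptors and kinases of the Ras, MAP kinase, PI3K, Akt, and mTOR branches were tested, none was called higher, and 1 was called lower. By the adjusted p in limma alone, 3 were higher and 11 lower, with 3 higher at an unadjusted p under 0.05 and 0 called higher by voom, and the median log2 fold change was -0.08. Over all genes, 8% were called higher and 2.92% lower, and 14.3% and 14% passed the adjusted p. The called gene was Plcg1, phospholipase C gamma, which docks on activated receptors and releases calcium. Its normalized counts were 1014, 933, and 864 with LNA Control against 564, 590, and 570 with LNA Malat1, without overlap (log2 fold change -0.70, SE 0.06, adjusted p 6e-06). Plcg1 shares 379 exonic bases (4.824%) with Zhx3 and 248 (3.156%) with Gm27206, both on the opposite strand.

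Among the inhibitors of receptor signaling, 29 of 31 are in the table and all of these were tested, with 1 called higher and 2 lower (8% and 2.92% of all genes), and with 2 higher and 9 lower by the adjusted p in limma alone (14.3% and 14%). The median log2 fold change was -0.07. Grb10, an adaptor that binds the active insulin and IGF1 receptors and restrains them, had the largest change of any listed pathway gene that was tested. It had normalized counts of 45, 40, and 34 with LNA Control against 211, 189, and 195 with LNA Malat1, a ratio of means of 4.94 (log2 fold change 2.30, SE 0.12, 95% interval 2.04 to 2.56, adjusted p 1.6e-07). Its call held in the 16 alternatives in which it was tested. Enpp1, a membrane protein that inhibits the insulin receptor, fell from 80, 110, and 120 to 59, 55, and 73 (log2 fold change -0.71, adjusted p 0.0055). Nf1, which encodes neurofibromin, a brake on Ras, fell from 1572, 1412, and 1367 to 938, 889, and 968 (log2 fold change -0.64, adjusted p 1.2e-05). Without LNA Control replicate 1 the change of Nf1 was -0.58 and under the fold minimum. Nf1 spans 242 kilobases, the class in which 8.76% of genes were called lower.

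Genes that growth factors induce moved in both directions. All 17 listed response genes are in the table and 16 were tested, of which 4 were called higher and none lower, against 8% and 2.92% of all genes. Fos, Fosb, and Fosl1 average between 20 and 50 normalized counts, where 19.6% of genes were called higher. By the adjusted p in limma alone, 7 were higher and 2 lower, with 3 lower at an unadjusted p under 0.05 and 0 called lower by voom, and the median log2 fold change was 0.20. The called genes were Fosl1, Fosb, Fos, and Egr1, immediate early transcription factors. Fosl1 had normalized counts of 8, 9, and 9 with LNA Control against 41, 43, and 44 with LNA Malat1 (log2 fold change 2.18, adjusted p 1.5e-05). However, Fosl1 shares 57.206% of its exonic bases with Ccdc85b on the opposite strand. Fosb went from 23, 9, and 16 to 49, 48, and 48 (log2 fold change 1.63, adjusted p 0.00094), and Fos from 15, 27, and 28 to 63, 51, and 60 (log2 fold change 1.32, adjusted p 0.001). None of the 4 overlapped between groups, with Egr1 at 174, 131, and 124 with LNA Control against 266, 262, and 281 with LNA Malat1 (log2 fold change 0.93, adjusted p 5.7e-05). Of the 16 tested response genes, 7 were higher and 3 lower without overlap, against 20.5% and 20.8% of all genes. By mean normalized count, not divided by length, the highest response genes were Srf, Ccnd1, and Jun. Srf, which binds the promoters of immediate early genes, was at 431 to 437 in LNA Control and 419 to 432 in LNA Malat1 (log2 fold change -0.03, adjusted p 0.66). Ccnd1, the gene of cyclin D1, fell from 266, 280, and 271 to 196, 201, and 187 (log2 fold change -0.48, adjusted p 0.00015), short of the fold minimum, and it shares 23.36% of its exonic bases with LTO1 on the opposite strand. Jun went from 187, 215, and 229 to 264, 237, and 256 (log2 fold change 0.27, adjusted p 0.03). It shares 7.275% of its exonic bases with Junos on the opposite strand.

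**Figure D5:**
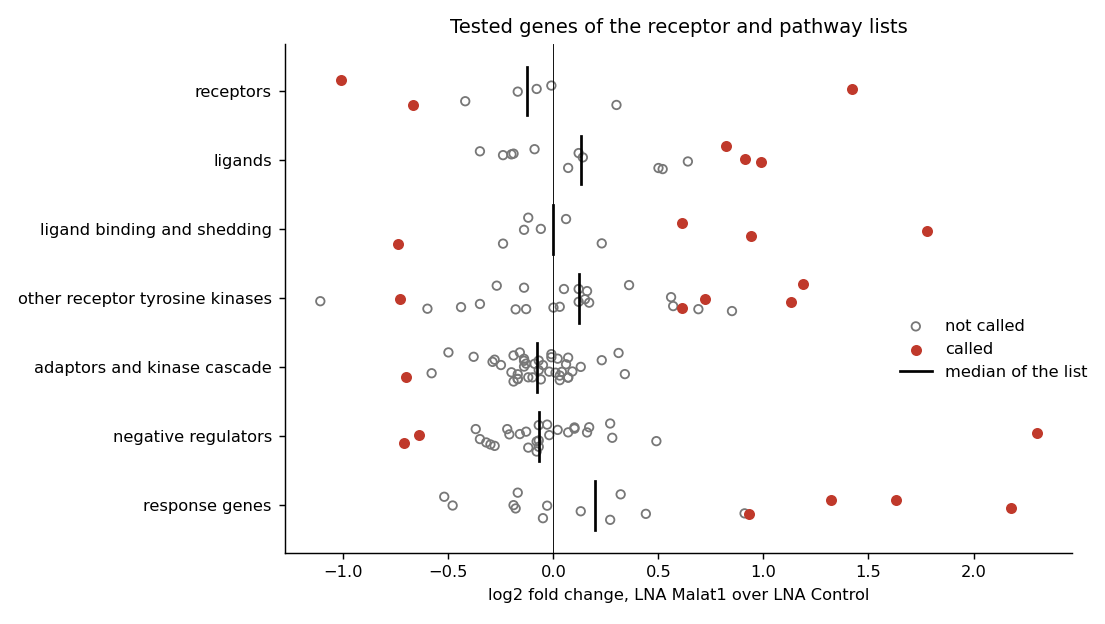
Log2 fold change (horizontal axis, LNA Malat1 over LNA Control) of every tested gene of the receptor list and of 6 lists of related genes, with called genes as filled red points, others as open points, and the median of each list as a vertical bar. Points are shifted up or down at random within a list so that they can be told apart. The 42 adaptors and kinases lie between -0.70 and 0.34, whereas Grb10 among the inhibitors reaches 2.30 and Fosl1 among the response genes 2.18.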

How the data were processed

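RNA-seq of HL-1 cells was analysed with 3 LNA Control and 3 LNA Malat1 libraries, grouped by their titles. By the study's methods and the submitters' processing notes, reads were trimmed with Trimmomatic 0.39, aligned with STAR 2.7.7a to mm10 (Ensembl 101), counted on exons with featureCounts 1.6.5, without those hitting more than 1 gene or region, and tested with DESeq2 1.30.0. The values deposited by the authors are treated as a score, namely counts divided by 1 factor per library and rounded, and not as raw counts.

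Genes with a mean of at least 5 (15650 of 21269) entered the test (limma 3.58.1, R 4.3.3, lmFit, eBayes with trend) on log2(normalized count + 1), two-sided, with Benjamini-Hochberg adjustment over all of them. Calls needed an adjusted p of 0.05 or lower and a change of 1.5-fold or more. The script was tested on simulated data. Ratios within libraries were compared by an exact permutation test (scipy 1.17.1). Factors and reads per library were recovered from values skipped or doubled by rounding, and reads are not independent molecules, so the comparison of replicates covers counting error only. Exons and overlaps come from GENCODE M21 (21224 of 21269 identifiers matched), promoter windows from RefSeq. Not every overlap of a named gene is given. Coding sequence of the ErbB genes is not reported here. A SMARTer stranded kit was used, but the strand setting of the counting is not given in the sources used here.

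The receptor genes and all lists were chosen with earlier results of these data known. Named are all receptor genes, Malat1, up to 6 called genes of each list with the largest change, and the 3 ligands and 3 response genes with the highest mean normalized count. Lists are described by counts and medians, with no test of a list. Alternatives were a block for the replicate number, a pseudocount of 0.1 or 5, scaling by median of ratios, equal totals, or quantiles, a minimum mean of 50 or none, voom weights, merging LNA Malat1 replicates 1 and 3, leaving out each library, and a fold minimum of 2 or none. The KEGG terms, the classes of span and level, and the ratios of Erbb4 were chosen after seeing the data.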

Additional observations from a re-analysis of the deposited data

How the results depend on the processing

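Erbb4 kept its call in the 16 alternatives run, Grb10 and Igf2r likewise. The count of receptor genes called higher was 0 with a mean of at least 50 or with LNA Malat1 replicates 1 and 3 merged, 0 to 1 when each library was left out, and 2 with no fold minimum, and the count called lower was 1 to 2 when each library was left out and 1 at a fold change of at least 2. Leaving out each library gave log2 fold changes of -0.73 to -0.57 for Igf1r, -0.05 to 0.02 for Insr, -0.13 to 0.02 for Fgfr1, and 1.19 to 1.80 for Pdgfrb. Insr was at 0.03 with equal totals and 0.05 with quantile normalization, where Pdgfra was at -0.62 and Srf at 0.03 (0.00 with equal totals, with its sign turned). Pdgfrb was at 1.31 with those replicates merged. The causes were not tested. Quantile normalization also changed the split of all called genes from 1252 higher and 457 lower to 748 and 718, a mean of at least 50 to 317 and 349, and merging LNA Malat1 replicates 1 and 3 to 831 and 428, and without LNA Malat1 replicate 1 it was 810 and 412.

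Counts of called genes in the lists moved with several settings, among them the fold minimum. With none and at a fold of at least 2 they were 5 and 0 for ligands, 10 and 2 for other receptor tyrosine kinases, 14 and 0 for adaptors and kinases, and 11 and 1 for inhibitors, while binding and shedding had 1 at a fold of at least 2 and response genes 9 with none. With a mean of at least 50, 1 ligand, 2 other receptor tyrosine kinases, and 1 response gene were called. Binding and shedding had 2 with quantile normalization, 2 with the same replicates merged, and 2 to 4 when each library was left out, other receptor tyrosine kinases 3 with those replicates merged and 2 to 5, and adaptors and kinases 2 with median-of-ratios scaling and 1 to 2.

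The main test did not pair the libraries by replicate number, and whether they were paired is not given in the sources used here. The deviations of same-numbered libraries correlated by 0.086, 0.182, and 0.083 over 10490 genes. Each library correlated best with its own number, and the other pairs ran from -0.189 to 0.046. With the replicate number as a block, the receptor genes called were again 1 higher and 2 lower, with Pdgfrb at an adjusted p of 0.01. Under the block Igfbp7 (0.058) and Epha3 (0.055) missed the adjusted p, 3 binding and shedding genes and 4 other receptor tyrosine kinases were called, and no other named gene changed its call. Depth limits Egfr, Pdgfra, and Pdgfrb, which have at most 56 reads in any library.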

Other observations

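The pathway terms that the deposited table lists for each gene give a broader view of the same signaling and were chosen after seeing the data. Of the 74 genes with the KEGG term of ErbB signaling, 72 were tested, 3 were called higher and 5 lower, and by the adjusted p in limma alone 9 were higher and 21 lower, with a median log2 fold change of -0.07. The genes called were Egf, Tgfa, Pik3r5, Erbb4, Plcg1, Nck2, Pik3cg, and Map2k7. For insulin signaling, 117 of 119 genes were tested, 3 were called higher and 1 lower, and 6 were higher and 30 lower by the adjusted p alone, also with a median of -0.07. The called genes there (Pik3cg, Pygm, Hkdc1, and Pik3r5) did not include Insr. Of the 239 genes tested for PI3K and Akt signaling 24 were called higher and 7 lower, and of the 192 tested for MAP kinase signaling 14 were called higher and 8 lower. Over all genes, 8% were called higher and 2.92% lower, and by the adjusted p alone 14.3% were higher and 14% lower.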
